A study of Drosophila melanogaster with 24 samples.

Results

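The genes described here are 9 genes of iron storage and metal handling in Drosophila melanogaster, namely Fer1HCH, Fer2LCH, Mvl, Tsf1, MtnA, MtnB, MtnC, Mco1 and Mco3. They were chosen by name from a fixed list, not by a threshold on measured values, out of 14220 genes with summed transcript counts. A low-count filter left 10184 genes for testing, and 8 of the 9 passed it. The remaining gene, Mco3, had too few reads to test and is described by its values alone.

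Iron in insects is stored and exported in ferritin, a hollow protein shell built from heavy chains, which oxidise the iron, and light chains, which help to lay it down as a mineral. Insect ferritin passes through the secretory pathway and is abundant in the hemolymph, and the fat body, which combines roles of liver and adipose tissue, is one of the tissues that make it. Metallothioneins are small cysteine-rich proteins that bind copper, zinc and cadmium, and their genes are switched on by the metal-responsive factor MTF-1. Transferrin carries iron in the hemolymph, Mvl belongs to the NRAMP family of divalent metal transporters, and multicopper oxidases can oxidise ferrous iron.

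The RNA came from the abdominal carcass of mated females aged about 4 days, that is, the fat body on its body wall, with 10 carcasses in each pool. There were 6 Control populations (C1 to C6) and 6 Selected populations (S1 to S6), and each population was raised once on a standard and once on a poor larval diet, so that each of the 4 groups held 6 libraries. The poor food held 0.25 of the standard concentration of yeast, sugars and cornmeal, about 200 eggs were laid into every 40 ml of food, and all adults were fed standard food from day 1 after emergence. Diet thus means larval food only. What the Selected populations were selected for is not stated in the labels used here, and no transgene or mutant allele is named for any group.

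The sample titles contradict the sample characteristics: diet differs between them for all 24 libraries, regime for 12, and no title gives the population that the characteristics give. Every group and direction below, for diet and for regime, follows the characteristics. Library totals were 29.4 to 31.5 M estimated counts in 23 libraries and 22.4 M in S2 on standard diet. The 8 fat body markers, among them the yolk protein genes, were detected in every library and summed to 14776 to 136890 CPM (counts scaled to a common library total). Traces of the gut varied more, since 10 midgut markers summed to between 8.64 and 11612 CPM. In such bulk RNA, fewer cells of a type and less RNA per cell cannot be told apart.

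Levels were compared between genes in TPM, a share of all transcripts that accounts for transcript length. MtnA was the most abundant of the 9 genes, with 6427 ± 3119 TPM (mean ± SD over 24 libraries). The ferritin chains followed with 1958 ± 340 TPM for Fer1HCH and 1952 ± 301 TPM for Fer2LCH, and these 2 genes did not differ beyond their spread. The iron transport genes were far lower.

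Tsf1, the hemolymph transferrin, had 44.4 ± 18.2 TPM, and Mvl had 37.9 ± 6.96 TPM, again within their spread. MtnC followed at 20.5 ± 30.1 TPM and MtnB at 6.78 ± 11.9 TPM, each with an SD larger than its mean. Mco1, a multicopper oxidase, had 2.44 ± 0.641 TPM and lay within the range of MtnB. Mco3, another multicopper oxidase, had 0.00818 ± 0.0147 TPM and was at 0 in 17 of 24 libraries, with at most 3 counts in any of them.

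**Figure D1:**
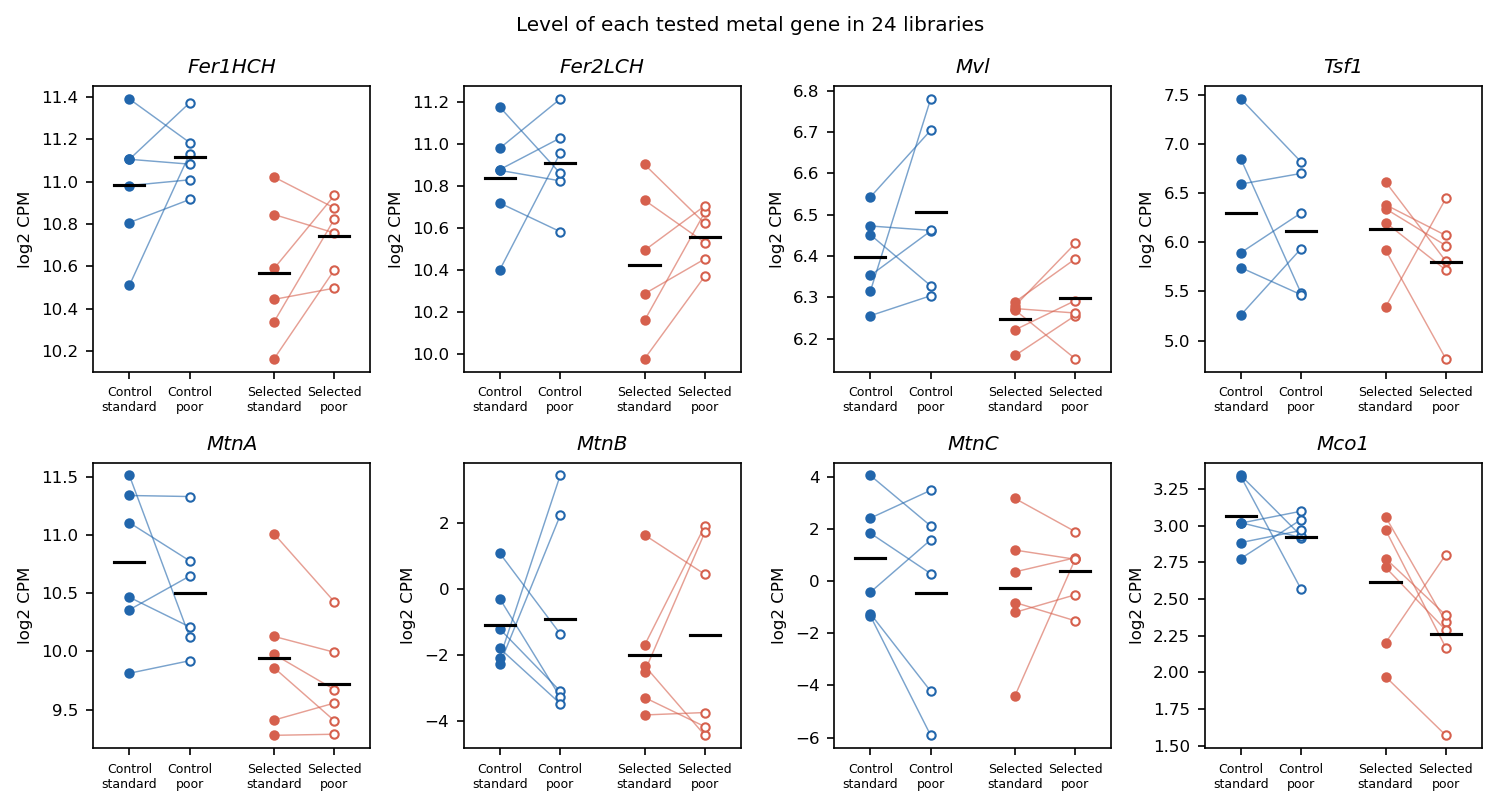
Level of each of the 8 tested genes (log2 CPM, 1 panel per gene) in the 4 groups of 6 libraries; each point is 1 library. Points of MtnB and MtnC scatter over several log2 units within a group, whereas those of Mvl stay between 71.1 and 110 CPM on the linear scale.

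The genes also differed in steadiness. In log2 CPM, Mvl was among the steadiest genes measured. Its SD over 24 libraries was 0.15, against a median of 0.33 over all tested genes, and 9.53% of tested genes had an SD no larger. This rank holds for CPM only: in TPM, Mvl ran from 28.0 in S6 to 58.0 in C3, both on poor diet, and genes were not ranked by SD in TPM. The SDs below are also of log2 CPM. Fer1HCH and Fer2LCH were near the middle, with SDs of 0.32 and 0.31. MtnA and Tsf1 were more variable, at 0.68 and 0.60. MtnC and MtnB had SDs of 2.48 and 2.33, larger than those of 96.9% and 96.2% of tested genes.

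The first question was whether these genes differed between Selected and Control populations, with the 2 libraries of each population summed and 6 populations set against 6. All 8 tested genes had lower fitted levels in Selected populations, but 0 of 8 passed the test across all genes (edgeR quasi-likelihood test, Benjamini-Hochberg adjusted p below 0.05). The background was 0.0295% of tested genes called, 3 of 10184. With no adjustment, 5 of the 8 had p below 0.05, against a background of 10.7%. The median fold change of the 8 was -0.48 on the log2 scale, beside 0.01 for all genes, of which 48.3% were below 0. The genes were listed with earlier results of these data known, so the shared direction is a description and no independent evidence.

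Fer1HCH (FBgn0015222, chromosome arm 3R, 30385573 to 30388178, minus strand) encodes the ferritin heavy chain. On standard diet its level in Control libraries ran from 1459 to 2685 CPM with a median of 2113, and in Selected libraries from 1146 to 2079 CPM with a median of 1467. On poor diet the Control libraries ran from 1932 to 2652 CPM with a median of 2207, and the Selected libraries from 1446 to 1958 CPM with a median of 1772. The groups overlapped on both diets, and on poor diet a single Selected library, S5, reached the Control range.

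Averaged over both diets, Fer1HCH had 2146 ± 279 CPM in Control populations and 1638 ± 243 CPM in Selected populations (SD, n = 6 each), and 5 Selected populations lay below all 6 Control populations. The exception was S4, at 1979 CPM, above C3 and C4. The log2 fold change was -0.41 ± 0.13 (SE), with an edgeR adjusted p of 0.269.

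Fer2LCH (FBgn0015221, 3R, 30387804 to 30390584, plus strand) encodes the light chain. Its Control libraries on standard diet ran from 1354 to 2316 CPM with a median of 1882, and the Selected libraries from 1009 to 1916 CPM with a median of 1347. The poor diet gave a Control range of 1535 to 2379 CPM with a median of 1925, and a Selected range of 1326 to 1672 CPM with a median of 1529. As for the heavy chain, groups overlapped on both diets.

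Population means of Fer2LCH were 1901 ± 233 CPM in Control and 1463 ± 208 CPM in Selected populations (SD, n = 6 each), a log2 fold change of -0.40 ± 0.12 with an edgeR adjusted p of 0.270. Again 5 Selected populations were below all Control populations and S4 was not. In TPM, which carries no TMM scaling factor, the populations separated for both chains. Fer1HCH then ran from 1591 to 1963 TPM (geometric means of the 2 diets) in Selected and from 1966 to 2567 TPM in Control populations. Fer2LCH ran from 1596 to 1946 TPM in Selected and from 1986 to 2374 TPM in Control populations.

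Such a separation with Selected populations lower was found for 0.54% of tested genes in TPM and for 0.363% in TMM-scaled CPM, and a separation in either direction for 0.815% in TPM. For Fer1HCH the gap between the regimes was 1963 against 1966 TPM, so the absence of overlap rests on a margin far smaller than the SD of either group. TMM factors ranged from 0.864 to 1.17 over the libraries. Without them the log2 fold changes were -0.36 ± 0.08 for Fer1HCH and -0.35 ± 0.07 for Fer2LCH, with adjusted p of 0.146 and 0.138 in edgeR.

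**Figure D2:**
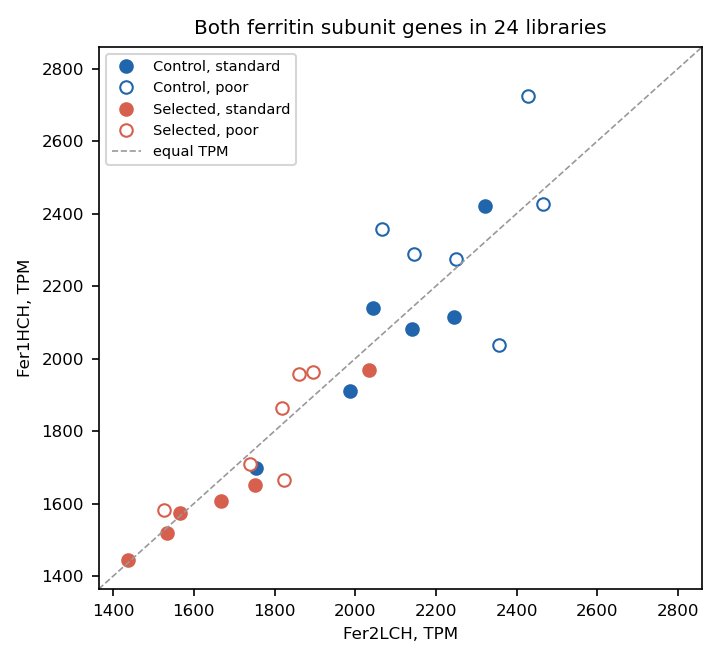
Fer1HCH against Fer2LCH in TPM, with 1 point for each of the 24 libraries, colour for regime and fill for larval diet; the dashed line marks equal TPM. Both chains lie close to the line, with ratios from 0.865 to 1.14, and most Selected libraries sit at its lower end.

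The 2 chains kept near-equal levels. Over the 24 libraries the ratio of Fer1HCH to Fer2LCH in TPM was 1.00 ± 0.0617 (SD), from 0.865 to 1.14. The ratio of population means was 1.01 ± 0.0660 in Control and 0.994 ± 0.0226 in Selected populations (n = 6 each, exact two-sided permutation test, p = 0.567, adjusted p = 0.681 over 6 such tests). It averaged 0.984 on standard and 1.02 on poor diet, with 9 of 12 populations higher on poor diet (exact paired permutation test, p = 0.117, adjusted p = 0.234).

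Across the 12 population means of log2 CPM the chains correlated at r = 0.98 and rho = 0.98 (permutation test, Pearson adjusted p = 0.00028 over 28 pairs of genes), and at 0.97 without the 2 populations farthest from the median. Within regimes r was 0.90 in Control and 0.99 in Selected populations. Each chain was also the other's closest match among all 10183 other tested genes, with a Spearman rho of 0.93 over 24 libraries. These libraries share composition and scaling, so the value is a description.

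The genes lie head to head and overlap by 375 bases, from 30387804 to 30388178 on 3R, of which 118 bases are exonic in both, from 30387804 to 30387921. No source used here says whether the quantification took account of strand, so reads from these shared bases could be credited to either gene. The only Fer2LCH transcript that enters the stretch, FBtr0085622, was estimated to hold 0 to 0.139% of that gene's counts. Transcript FBtr0332168, which starts outside the stretch, held 95.1% to 98.1%. Both shares come from the same quantification, so they cannot tell how many reads of the stretch were credited to Fer1HCH.

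Fer1HCH was carried by 2 transcripts. FBtr0085632, which has 57 bases in the shared stretch, held 70.4% to 81.2% of its counts. FBtr0085631, whose first exon begins farther upstream at 30388178 and which has all 118 bases, held 14.8% to 23.1%. The share of this upstream-start transcript was 18.7 ± 2.75% in Control and 20.7 ± 0.583% in Selected populations (SD, n = 6 each), with p = 0.106 and adjusted p = 0.234 in the exact permutation test.

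The upstream-start transcript held 20.04 ± 2.29% of Fer1HCH counts on poor and 19.3 ± 2.19% on standard diet (SD, n = 12 each), higher on poor diet in 9 of 12 populations. The exact paired permutation test gave p = 0.0454 and adjusted p = 0.234, so the difference did not pass. These shares are estimates of the quantification, which divides reads between transcripts that share most of their sequence.

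Mvl (FBgn0011672, 3R, 21051383 to 21060800, minus strand), the fly NRAMP transporter of iron and manganese, had the smallest fold change of the 8 genes. Its Control libraries on standard diet ran from 76.4 to 93.2 CPM with a median of 84.6, and the Selected libraries from 71.5 to 78.2 CPM with a median of 77.2. On poor diet the ranges were 79.0 to 110 CPM with a median of 88.1 in Control and 71.1 to 86.2 CPM with a median of 77.5 in Selected libraries. On standard diet only C2 among the Control libraries fell inside the Selected range. Population means were 88.1 ± 7.66 and 77.4 ± 3.42 CPM (SD, n = 6 each), a log2 fold change of -0.21 ± 0.06 with an edgeR adjusted p of 0.270.

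Tsf1 (FBgn0022355, X, 18387084 to 18390344, plus strand) encodes the transferrin of the hemolymph, which also withholds iron during infection. Population means were 81.9 ± 36.0 CPM in Control and 65.8 ± 12 CPM in Selected populations (SD, n = 6 each). C1 was highest at 144 CPM, with 175 CPM on standard diet, and S4 lowest at 44.3 CPM. The regimes overlapped widely, and the log2 fold change of -0.36 ± 0.26 had an edgeR adjusted p of 0.676.

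MtnA (FBgn0002868, 3R, 9783407 to 9784370, minus strand) is the metallothionein with the highest level in this tissue. On standard diet its Control libraries ran from 899 to 2923 CPM with a median of 1811, and the Selected libraries from 621 to 2064 CPM with a median of 968. On poor diet the ranges were 969 to 2578 CPM with a median of 1395 in Control and 625 to 1376 CPM with a median of 784 in Selected libraries. The groups overlapped on both diets, through low values in C2 and high values in S4.

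Population means of MtnA were 1713 ± 595 CPM in Control and 974 ± 397 CPM in Selected populations (SD, n = 6 each), and 4 Selected populations were below all Control populations. The log2 fold change was -0.84 ± 0.29, with an approximate 95% interval from -1.41 to -0.27 and an edgeR adjusted p of 0.309. C6 had the highest mean, 2586 CPM, and S1 the lowest, 623 CPM. The longer of the 2 MtnA transcripts, FBtr0334686, held 5.49% to 9.70% of its counts, with no difference that passed between regimes (exact permutation test, adjusted p = 0.321) or diets (adjusted p = 0.949).

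**Figure D3:**
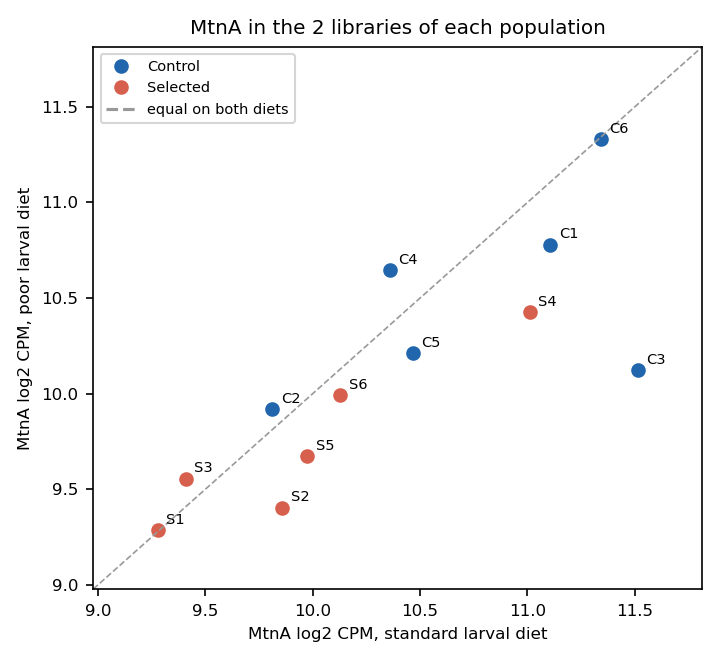
MtnA level (log2 CPM) on poor diet against standard diet, with 1 point for each of the 12 populations, coloured by regime; the dashed line marks equal levels on both diets. Populations high on 1 diet were mostly high on the other, and C3 lies farthest below the line, with 2923 CPM on standard and 1116 CPM on poor diet.

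The MtnA level of a population was alike on its 2 diets. Over 12 populations the log2 CPM on standard and on poor diet correlated at r = 0.80 (permutation test, adjusted p = 0.0133 over 8 genes) and rho = 0.84 (adjusted p = 0.0092). Without the 2 populations farthest from the median, r was 0.89. Within regimes it was 0.92 over 6 Selected and 0.51 over 6 Control populations, and the pooled value also spans the difference between the regimes.

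For Fer1HCH the same correlation was r = 0.69 (permutation test, adjusted p = 0.0524) and rho = 0.71 (adjusted p = 0.0252), and r fell to 0.54 without the 2 farthest populations. Mvl had rho = 0.79 (adjusted p = 0.0131) but r = 0.55 (adjusted p = 0.113), and MtnC had rho = 0.73 (adjusted p = 0.0249) with r = 0.51 (adjusted p = 0.150). For Tsf1, MtnB and Mco1 neither measure passed, with r of 0.27, 0.14 and 0.48, and for Fer2LCH, at r = 0.58, the adjusted p was 0.113. In these CPM values MtnA was the only one of the 8 for which both measures passed. In TPM both also passed for Fer1HCH (adjusted p = 0.0119 and 0.0072) and Fer2LCH (adjusted p = 0.0150 and 0.0072), while Mvl lost its rank correlation (rho = 0.48, adjusted p = 0.154). These pooled values also span the difference between the regimes. Within Control and Selected populations, r in CPM was 0.35 and 0.53 for Fer1HCH and 0.17 and 0.43 for Fer2LCH. It was 0.23 and 0.32 for Mvl and 0.78 and 0.39 for MtnC. In TPM it was 0.45 and 0.45 for Fer1HCH and 0.55 and 0.16 for Fer2LCH.

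Pooled over the regimes, population means of MtnA, Mco1 and the ferritin chains were related in part. Across 12 population means, MtnA and Fer2LCH correlated at r = 0.77 and rho = 0.80 (permutation test, Pearson adjusted p = 0.0329), with 0.91 in Selected and 0.18 in Control populations. MtnA and the heavy chain had r = 0.68 and rho = 0.73 (adjusted p = 0.0858 and 0.061). Mco1 passed the Pearson test with both chains, at r = 0.73 for Fer1HCH and 0.75 for Fer2LCH (adjusted p = 0.0329 each), but not the rank test (adjusted p = 0.061 and 0.115). For these 2 pairs r was 0.03 and -0.26 within Control and 0.52 and 0.64 within Selected populations. Without the 2 farthest populations r was 0.51 and 0.56. The differences between regimes in these values were not tested, and each pooled value also spans the difference between the regimes. Among all 10183 other tested genes, Fer2LCH ranked 14 by likeness to MtnA over the 24 libraries (rho = 0.73), behind Idgf5 (0.79), Pdi (0.78) and CG10165 (0.77) as the closest genes.

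Mco1 (FBgn0032116, 2L, 9416588 to 9426342, plus strand) is a multicopper oxidase linked to iron balance in flies. On standard diet its Control libraries ran from 6.83 to 10.1 CPM with a median of 8.08, and the Selected libraries from 3.91 to 8.31 CPM with a median of 6.69. On poor diet the ranges were 5.90 to 8.54 CPM with a median of 7.70 in Control and 2.96 to 6.96 CPM with a median of 4.96 in Selected libraries. The libraries overlapped on each diet, through S3 and C1 on poor diet.

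Averaged over both diets, all 6 Selected populations (3.43 to 6.69 CPM) lay below all 6 Control populations (7.52 to 8.86 CPM) in Mco1. Such a gap in either direction was seen for 0.795% of tested genes in CPM. Mean levels were 8.01 ± 0.504 and 5.63 ± 1.13 CPM (SD, n = 6 each), and the log2 fold change was -0.55 ± 0.14 with an edgeR adjusted p of 0.192. DESeq2, which called 221 of 10184 genes in this comparison, called Mco1 (-0.55, adjusted p = 0.0146) and none of the other members. In TPM the regimes touched, since the highest Selected population was at 2.52 and the lowest Control population at 2.49 TPM. Mco1 has 3 annotated transcripts of nearly equal length, and the estimates put between 0 and 100% of its counts on a given one of them, so no transcript of Mco1 is compared.

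MtnB and MtnC, metallothioneins known for their response to cadmium and copper, were low and erratic. MtnB (FBgn0002869, 3R, 20503102 to 20503746, minus strand) ran from 0.0305 to 10.99 CPM, or 1 to 296 counts in a library. Its highest values were 10.99 CPM in C1 on poor diet, 4.72 in C3 on poor diet and 3.78 in S4 on poor diet, whereas the same populations had 0.218, 0.191 and 0.288 CPM on standard diet. The log2 fold change between regimes was -0.73 ± 1.07, with an edgeR adjusted p of 0.851, and it turned to 0.17 without population C1.

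MtnC (FBgn0038790, 3R, 20360308 to 20360634, plus strand) ran from 0 to 16.5 CPM. A library with no count allows up to 3 counts, which is 0.098 CPM in C2 on poor diet, where MtnC was at 0. The highest levels were 16.5 CPM in C4 on standard diet, 11.1 in C3 on poor diet and 8.95 in S6 on standard diet. Its log2 fold change between regimes was -1.002 ± 0.956, with an edgeR adjusted p of 0.759.

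**Figure D4:**
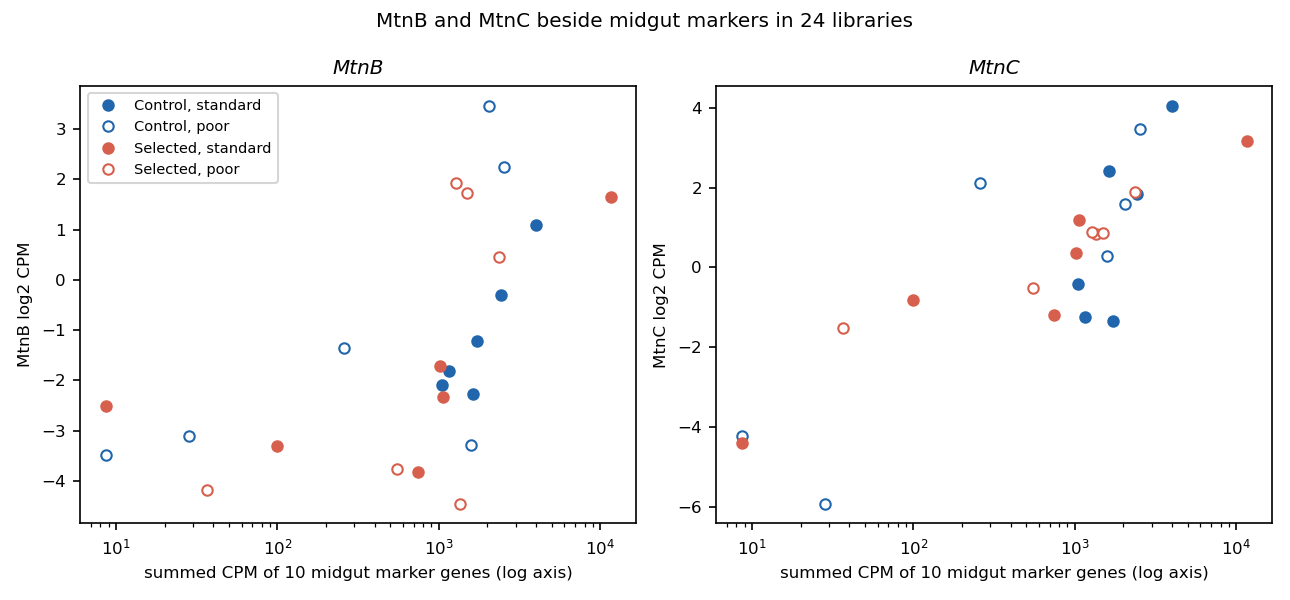
Level of MtnB and MtnC (log2 CPM) against the summed level of 10 midgut marker genes (CPM, log axis), with 1 point for each of the 24 libraries, colour for regime and fill for larval diet. The 3 libraries lowest in midgut markers hold the 3 lowest levels of MtnC, and the 3 libraries highest in midgut markers hold the 3 highest.

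MtnC moved with markers of the midgut, an organ that the dissection aimed to remove. Over 12 populations its log2 CPM correlated with the summed midgut markers at r = 0.82 on standard diet, 0.85 on poor diet and 0.81 for the mean of both (permutation tests, adjusted p = 0.0361 for each over 192 relations between members and marker lists). The Spearman values of 0.66, 0.73 and 0.76 did not pass, with adjusted p of 0.21, 0.14 and 0.14. Within regimes r was 0.80 and 0.95 on standard diet and 0.87 and 0.93 on poor diet, for Control and Selected populations respectively. MtnB leaned the same way but did not pass. Its r with midgut markers was 0.66 on standard and 0.59 on poor diet (permutation tests, adjusted p = 0.227 and 0.338). Its rho was 0.87 and 0.57 (adjusted p = 0.0653 and 0.336).

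The libraries with the least midgut signal, S5 on standard diet (8.64 CPM), C6 on poor diet (8.69 CPM) and C2 on poor diet (28.3 CPM), were the 3 libraries with the least MtnC. Their MtnC levels were 0.0318, 0.0358 and 0 CPM. At the other end, S6 on standard diet had 11612 CPM of midgut markers with 8.95 CPM of MtnC. The part of residual midgut in the MtnB and MtnC values was not tested.

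On standard diet, hemocyte markers moved with the ferritin genes and Mco1. The 10 hemocyte markers were all detected in every library, with 9 of 10 below 0 in the regime comparison, 0 called, and a median of -0.55. Their summed level ran from 697 to 1220 CPM over Control population means and from 551 to 761 CPM over Selected ones. On standard diet it correlated with Fer1HCH at r = 0.80, with Fer2LCH at 0.81 and with Mco1 at 0.84 (permutation tests over 12 populations, adjusted p = 0.0361 each), and within regimes r was 0.60 to 0.82.

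On poor diet the correlations with hemocyte markers were 0.64 for Fer1HCH, 0.50 for Fer2LCH and 0.57 for Mco1, with adjusted p of 0.227, 0.426 and 0.383. Within Control populations they were then 0.07, -0.29 and -0.61, and within Selected populations 0.44, 0.62 and 0.66. No Spearman relation of the 192 passed. Both ferritin chains also passed the Pearson test against oenocyte and muscle markers on standard diet, but on poor diet r was -0.13 and -0.43 for Fer1HCH and 0.10 and -0.23 for Fer2LCH. For scale, ferritin stood at 1146 to 2685 CPM of Fer1HCH beside 434 to 1259 CPM for all 10 hemocyte markers together. On standard diet, S1 and C4 were lowest of their regime in Fer1HCH (1146 and 1459 CPM) and in hemocyte markers (434 and 606 CPM). They were also lowest in muscle markers (4444 and 4667 CPM) and highest in germline markers (1242 and 996 CPM). The libraries share composition and scaling, so these correlations are descriptions. The part of hemocytes in the ferritin and Mco1 values was not tested.

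Germline markers, which trace ovary left in a carcass, were on the opposite side. Of 5 tested, 5 were above 0 in Selected populations, with 0 called and a median of 1.08 on the log2 scale, and their sum ran from 16.7 to 683 CPM over Control and from 180 to 907 CPM over Selected population means. On standard diet r was -0.77 for both Fer1HCH and Fer2LCH (permutation tests over 12 populations, adjusted p = 0.0722 each), with -0.60 and -0.88 for Fer1HCH within Control and Selected populations. On poor diet r was -0.22 for Fer1HCH and -0.10 for Fer2LCH. The part of residual ovary in the regime values was not tested.

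Within a single diet the picture was the same in direction. On standard diet all 8 genes were below 0 in Selected populations (42.7% of all genes), 0 passed the edgeR test (background 0.00982% called) and 3 had an unadjusted p below 0.05 (background 6.38%). On poor diet all 8 were below 0 (46.7% of all genes), 0 passed (background 0.0589%) and 5 had an unadjusted p below 0.05 (background 9.91%). The direction was not firm for every gene. On standard diet MtnB was at -0.06 ± 0.98, and its sign turned in 6 alternative fits and held in 12. Tsf1 and MtnC each turned in 1 alternative fit on standard diet. On poor diet MtnB and MtnC each turned in 2 and held in 16.

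The DESeq2 fit on poor diet called 210 of 10184 genes. Among them were 3 of the 8, namely Fer1HCH (-0.38, adjusted p = 0.0178), Fer2LCH (-0.37, adjusted p = 0.0392) and Mco1 (-0.63, adjusted p = 0.0428). The edgeR values for the same genes were -0.37 ± 0.10, -0.36 ± 0.11 and -0.63 ± 0.18, with adjusted p of 0.222, 0.276 and 0.222. The sizes were thus alike and the calls differed between tools.

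**Figure D5:**
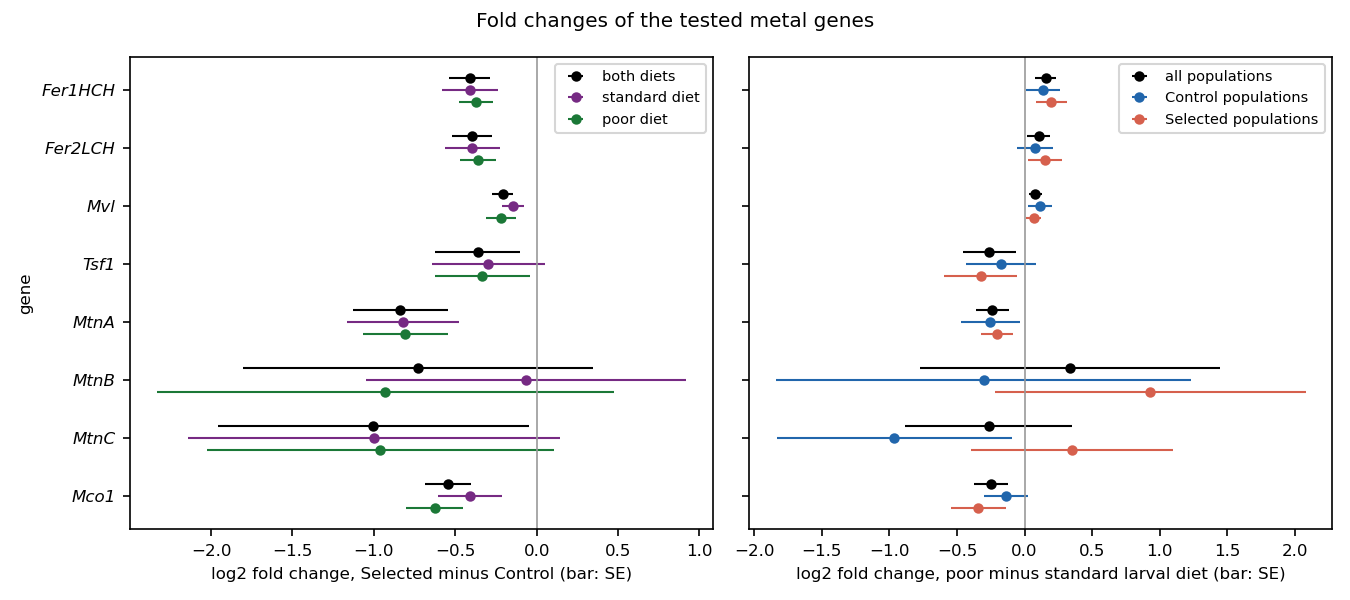
Log2 fold changes of the 8 tested genes, on the left for Selected minus Control populations (both diets, standard diet, poor diet) and on the right for poor minus standard larval diet (all, Control and Selected populations); bars are SE. All regime values of these fits lie below 0, while the diet values lie on both sides of 0 and the bars of MtnB and MtnC are the widest.

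The second question was whether larval diet changed these genes in the adult. Of the 8 tested genes 0 passed in the fit of 24 libraries with population as a block, against a background of 1.13% called, and 0 had an unadjusted p below 0.05, against 17.6% of all genes. DESeq2 called 0 of them as well. The fold changes, poor minus standard, split into 4 above and 4 below 0, where 55.7% of all genes were below 0. Fat body markers did differ between diets: all 8 were below 0 on poor diet and 4 passed, with a median of -0.83. Medians of their summed level on standard and poor diet were 59990 and 41011 CPM in Control libraries. In Selected libraries they were 63965 and 26031 CPM. The part of this shift in the diet values of the metal genes was not tested.

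Fer1HCH, Fer2LCH, Mvl and MtnB were on the upper side, with none called. Fer1HCH had a log2 fold change of 0.16 ± 0.08 (edgeR adjusted p = 0.321) with 8 of 12 populations higher on poor diet. Fer2LCH had 0.10 ± 0.09 (adjusted p = 0.524, 7 of 12) and Mvl 0.08 ± 0.05 (adjusted p = 0.399, 8 of 12). The approximate 95% interval of Mvl, from -0.02 to 0.17, allows only a small effect in either direction.

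Tsf1, MtnA and Mco1 were on the lower side. Their log2 fold changes were -0.26 ± 0.19, -0.24 ± 0.12 and -0.25 ± 0.13, each lower on poor diet in 8 of 12 populations, with edgeR adjusted p of 0.484, 0.326 and 0.323. Single populations differed strongly in Tsf1, which had 114.9 CPM on standard and 44.6 CPM on poor diet in C3 but 40.5 and 87.1 CPM in S3. MtnB (0.34 ± 1.11) and MtnC (-0.27 ± 0.62) had errors larger than their fold changes.

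The response to diet was also compared between the regimes. In the interaction fit 0 of the 8 genes passed and 0 had an unadjusted p below 0.05, beside 1.52% of all genes (155). Over all genes edgeR called 0 in this comparison and DESeq2 called 1. For Fer1HCH the interaction was 0.05 ± 0.16, with an approximate 95% interval from -0.27 to 0.37. For MtnA it was 0.04 ± 0.25, from -0.46 to 0.53. Within Control populations 0 of the 8 passed (background 0% called), and within Selected populations 0 of the 8 passed (background 0.628%).

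Other genes of metal handling were read from a wider list of 51 symbols, of which 49 were matched and 43 were tested. Between regimes 0 of the 43 passed, with 14 above and 29 below 0 and a median of -0.06. The metallothionein group gave the lowest median, -0.67, over 3 tested genes: MtnE (-0.92 ± 0.45, edgeR adjusted p = 0.504), MtnD (-0.67 ± 0.37, adjusted p = 0.554) and the factor MTF-1 (-0.12 ± 0.11, adjusted p = 0.742). MtnE averaged 2.76 ± 1.69 CPM in Control and 1.499 ± 0.679 CPM in Selected populations (SD, n = 6 each).

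The other groups of the wider list were near 0 between regimes. The 7 tested iron genes had a median of -0.06, among them Ho, the heme oxygenase that frees iron from heme (-0.27 ± 0.09, edgeR adjusted p = 0.293), and Irp-1B, a homologue of the iron regulatory proteins (-0.15 ± 0.12, adjusted p = 0.719). The 15 tested zinc transporter genes had a median of -0.05, with 11 below 0. One of them, Zip99C, which moves iron into the secretory pathway of the fly, had -0.40 ± 0.15 (adjusted p = 0.342). The 7 copper genes, 7 heme synthesis genes and 4 genes of iron-sulfur cluster assembly had medians of 0.02, -0.05 and -0.07.

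Between diets 1 of the 43 genes passed and rose on poor diet. This was stw, the gene of laccase 2, the multicopper oxidase that tans the cuticle, with 19.2 ± 2.28 CPM on standard and 23.6 ± 3.56 CPM on poor diet (SD, n = 12 each). In CPM all 12 populations had more stw on poor diet, and 0.805% of tested genes differed in a single direction in all 12. In TPM, stw was slightly lower on poor than on standard diet in C1 (5.44 against 5.66), C4 (9.33 against 9.35) and C6 (8.31 against 8.57). Every other population was higher on poor diet in TPM as well. The log2 fold change of stw was 0.29 ± 0.06, with an edgeR adjusted p of 0.0497. The call is at the edge: leaving out 1 population at a time kept it in 2 of 12 fits, with adjusted p from 0.0387 to 0.128 and log2 fold changes from 0.27 to 0.32. The other 42 genes did not pass, and 23 of the 43 were above 0 with a median of 0.02.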

How the data were processed

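Each of 24 libraries is 1 pool of carcasses. Per the submitters' processing notes, the authors used kallisto 0.46.2 with build BDGP6, and limma and edgeR. The deposited files hold estimated counts, fractional and not normalized, and TPM per transcript, per the file headers. The authors also deposited log2 CPM of 8746 genes in 1 table, which served as an alternative. All columns used match a sample, and 0 columns did not.

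Estimated counts were summed per gene through the BDGP6.54 annotation (133 of 30944 transcripts, with 0.2% to 0.391% of counts per library, were not joined) and rounded. CPM in the text is scaled by TMM factors, and log2 CPM used a prior count of 0.5. Genes passing filterByExpr were fitted in R 4.3.3 by the quasi-likelihood test of edgeR 4.0.16, with adjusted p below 0.05 called. An SE is the size of the fold change divided by the root of its F statistic. The 95% intervals of fold changes use a normal multiplier of this SE, so they are approximate and somewhat narrower than the F test implies. DESeq2 1.42.0 and limma 3.58.1 served as alternatives. Regime within a diet and diet within a regime were fitted on 12 libraries each. Diet fits have the population as a block, because the labels place the same population on both diets; the correlation of its 2 libraries was 0.285 on average in limma. Each library was 1 pool. The p-values of regime fits thus measure the spread between populations, with that between pools included. Those of blocked diet and interaction fits measure how far the poor minus standard difference varies between populations, again with pools included. Correlations used 100000 permutations. Tested on simulated data with 10184 genes, the regime fit recovered 67% of genes changed by 1 and 91% of those changed by 2 on the log2 scale, and the diet fit 82% and 95%. Smaller changes, such as the median of -0.48 of the 8 tested genes between regimes, were not simulated, so recovery at that size is unknown. Floors and intervals of counts cover counting error only, which weighs most on MtnB, MtnC and Mco3.

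The genes and lists were chosen with earlier results of these data known. All 9 genes are named, with any gene of the wider list that passed, up to 4 further examples per group, and up to 3 genes of closest pattern. Listed symbols that matched no gene were not analysed here.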

Additional observations from a re-analysis of the deposited data

Results flagged for a closer look

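Within each group of 6 libraries, the highest and lowest values of the 8 tested genes were compared with the rest by Dixon's test, and 5 of 32 groups held a library that stood far above the others. The test was run on CPM, and its rate of about 1 in 20 groups by chance assumes normal values, which the skewed CPM of these genes need not follow. MtnA reached 2064 CPM in S4 on standard diet, while the next Selected library on that diet had 1120 CPM. The other 4 values belong to the 2 rare metallothioneins and to only 2 libraries. In C4 on standard diet, MtnB was at 2.11 CPM (next 0.797) and MtnC at 16.5 CPM (next 5.31). In S6 on standard diet, MtnB was at 3.12 CPM (next 0.288) and MtnC at 8.95 CPM (next 2.26). These 2 libraries also had the highest summed midgut markers of all 24, at 3992 and 11612 CPM, and the part of residual midgut in these values was not tested. On the log2 CPM scale 0 of these 5 values passed Dixon's critical value, with gap ratios of 0.509 for MtnA, 0.412 and 0.613 for MtnB and 0.303 and 0.262 for MtnC. On that scale 1 group of the 32 held such a value, a low one: Mco1 in C1 on poor diet (5.90 CPM, next 7.54, gap ratio 0.662).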

How the results depend on the processing

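Over all alternatives, 869 of 912 fitted values of single genes kept their direction and their side of the threshold. DESeq2 called 1 member (Mco1) for regime over both diets and 3 for regime on poor diet, where edgeR called 0; all other alternatives called 0 members in these comparisons. Counts over all genes moved more: DESeq2 called 221 for regime over both diets (edgeR 3), 548 for diet (115), 1 for the interaction (0), 51 for regime on standard diet (1), 210 on poor diet (6), 15 for diet in Control (0) and 395 in Selected populations (64). Totals with no scaling factor, an alternative chosen after seeing the data, gave 1, 186 and 108 genes for regime, diet and diet in Selected populations, and 1 for regime on poor diet, as did RLE factors and no filter. The authors' log2 table with limma gave 1 for regime. Leaving out 1 population gave 1 to 36 genes for regime (36 without C4, 5 without S4), 3 to 139 for diet (3 without S1), 1 to 12 for regime on poor diet, 1 to 2 on standard diet and 1 to 30 for diet in Selected populations. The cause was not tested.

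Replicate numbers pair nothing across regimes. With them as a replicate block, 0 genes were called for regime over both diets or on either diet, MtnB on poor diet turned to 0.61 and MtnC to 0.11; limma with a random effect of population called 155 genes. With no replicate block for diet 21 genes were called, MtnB in Control populations turned to 2.02 and MtnC in Selected populations to -0.38.

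Other reversals were of genes not called. DESeq2 gave -0.0551 for MtnB between diets, the authors' table gave 0.86 for MtnC on poor diet and 0.19 for MtnB between diets in Control populations, unscaled totals gave -0.0031 for the MtnA interaction, and TPM gave r = -0.0224 for MtnB across diets. In TPM the likeness of a population on both diets passed for Fer1HCH (r = 0.79) and Fer2LCH (0.76), and the rank correlation of Mvl (0.48) no longer did. Leaving out 1 population, MtnB ranged from -1.095 to 0.17 for regime, -0.21 to 0.79 for diet, -2.10 to 0.75 for regime on standard diet, -1.51 to 0.41 on poor diet and -1.37 to 0.60 for diet in Control populations. MtnC ranged from -2.28 to 0.10 for regime on standard diet and -0.22 to 0.73 for diet in Selected populations. Tsf1 ranged from -0.46 to 0.0139 for regime on standard diet and -0.36 to 0.0557 for diet in Control populations, and Fer2LCH from -0.0304 to 0.16 there. Interactions ranged from -0.0217 to 0.14 (Fer1HCH), -0.0164 to 0.16 (Fer2LCH), -0.11 to 0.0123 (Mvl), -0.44 to 0.0064 (Tsf1) and -0.18 to 0.15 (MtnA). For stw, 3 of 5 other settings lost the call, with adjusted p from 0.00277 to 0.125.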

Other observations

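The nearest genes in pattern, by Spearman rho of log2 CPM over the 24 libraries, differed between the metallothioneins. MtnB was closest to CG5767 (0.87), the galactosidase gene Gal (0.81) and the serine protease gene Jon74E (0.77). MtnC was closest to CG15255 (0.87), the tachykinin gene Tk (0.86) and CG4781 (0.86), and MtnB and MtnC themselves had a rho of 0.64. Tachykinin is made in enteroendocrine cells of the fly gut as well as in neurons. The part of residual gut in these values was not tested.

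Mco1 was closest to CG9521 (0.76), and Fer1HCH, after the light chain, to CG43091 (0.93) and CG4716 (0.88). Fer2LCH was closest, after the heavy chain, to CG10031 (0.92) and CG9631 (0.91). For Mvl and Tsf1 the highest values were lower, at 0.71 with the pseudogene Cyp6a15Psi and 0.73 with CG16978.

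The wider list held genes that were hardly read in this tissue. Fer3HCH, which encodes the mitochondrial ferritin, averaged 0.0155 CPM, beside 1892 CPM for Fer1HCH, and the copper transporter gene Ctr1C was at 0 in every library. MtnF averaged 0.185 CPM.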
